A study of Mus musculus with 28 samples.

Results

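Female and male kidneys of mice that carry the R form of aquaporin-3 (Aqp3) were compared over the autosomal genes, those on chromosomes 1 to 19. Aquaporin-3 lets water and glycerol through the basolateral side of the principal cells that line the collecting duct. The labels describe R as a mimetic of the deacetylated protein, Q as a mimetic of the acetylated protein, and WT as wild type, and the series title names a lysine of aquaporin-3 as the site. The members were the 3 female R and the 5 male R libraries, 8 of the 28 libraries of the series, and the autosomal genes measured in them. Of 48071 autosomal genes in the count table, 16622 passed the filter on low counts and were tested, and 31449 did not pass it.

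All mice were untreated, were fed pellets and tap water freely, and were killed between 2 and 5 h of zeitgeber time, that is hours after lights on. The kidneys were freed of their capsule and frozen, and polyadenylated RNA of the whole organ was sequenced. The 10 WT and 10 Q libraries (5 females and 5 males in each genotype) had the same treatment and share no library with the R contrast. Age, strain and litter are not in the labels, and nothing in them says that the replicates are different animals. Each p-value thus rests on the variation among the labelled libraries, part of which may be technical.

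The mouse kidney differs between the sexes mainly in the proximal tubule, the segment that takes back most of the filtered sugars, amino acids and phosphate and secretes organic ions. Androgens act there through the androgen receptor, whose gene lies on the X chromosome and is therefore not among the genes described. Prolactin and growth hormone signal through related receptors and through JAK2 and STAT5, and are known for sex-dependent effects on liver and kidney enzymes.

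Total counts per R library ran from 15385005 to 21283031. Xist, which is transcribed from the inactive X chromosome, stood at 314 to 435 CPM (counts relative to the TMM-scaled library total) in the 3 female R libraries and at 0.914 to 2.01 in the 5 male R libraries, and summed Y-linked genes at 17.8 to 23.6 and 142 to 180 CPM. All 8 libraries thus matched their labels for sex. Slc34a1, the main phosphate carrier of the proximal tubule, stood at 4120 CPM or more in each R library, and Slc12a1, the salt carrier of the thick ascending limb, at 824 CPM or more. Mitochondrially encoded genes held 10.9 to 12.1% of counts in female R and 9.56 to 11.7% in male R. On the first principal component of the 8 libraries, which held 45.4% of the variance, all females lay on one side and all males on the other. Among the other genotypes, female WT replicate 2 had 0.515 CPM of Xist and 4.17 CPM of Y-linked genes. Male Q replicate 4 and female Q replicate 5 had mitochondrial shares of 7.74% and 3.94%. These 3 libraries bear on the R contrast only through the shared estimate of the spread, the scaling and the filter.

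Between the sexes, 2368 autosomal genes differed in R kidneys, 14.2% of those tested (edgeR quasi-likelihood test, Benjamini-Hochberg adjusted p under 0.05). Of these, 1163 were higher in females (7% of those tested) and 1205 were lower (7.25%). The counts given for each gene list below are to be read against these shares. The difference was at least 2-fold for 692 genes, 350 higher and 342 lower in females, and at least 16-fold for 78 genes. The median log2 fold change, female over male, was 0.69 among genes called higher and -0.64 among genes called lower, against 0.03 over all tested autosomal genes. The female and male ranges did not overlap for 4019 genes (24.2%). Protein-coding genes made up 1061 of the higher and 1100 of the lower genes. The called share was lowest on chromosome 12 (11.4%) and highest on chromosome 13 (18.6%). Without the 3 libraries named above, the count rose to 4022 and held 2364 of the 2368 genes. It fell to 1541 without female R replicate 1 and to 1553 without female R replicate 2.

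The genes with the largest differences included solute carriers, enzymes of steroid and fatty acid metabolism, and secreted proteins. The DNA before the start of 6 of them is shown here because these genes were low in one sex and high in the other, so a reader can set the sequences of female-high and male-high genes side by side. Of the 24 genes with the largest rises and falls, 18 had an entry in the RefSeq promoter table and 14 had exactly 1, from which these 6 were taken. Each sequence is the 250 bases before the RefSeq start on GRCm38.p6, while the reads were counted on a later build. Capitals mark matches on either strand to AGAACA (one arm of an androgen or glucocorticoid response element), TTCNNNGAA (a STAT site, which reads alike on both strands), GTTAAT (one arm of a site of HNF1, a factor of the proximal tubule) and CAAAGTCCA (an HNF4 site). Ugt1a2 (chr1:88200361-88200610, plus strand), Slc17a2 (chr13:23806743-23806992, plus) and Slc22a29 (chr19:8218901-8219150, minus) were higher in females. Slco1a1 (chr6:141946963-141947212, minus), Pzp (chr6:128526721-128526970, minus) and Ugt2b37 (chr5:87254789-87255038, minus) were lower.
Ugt1a2: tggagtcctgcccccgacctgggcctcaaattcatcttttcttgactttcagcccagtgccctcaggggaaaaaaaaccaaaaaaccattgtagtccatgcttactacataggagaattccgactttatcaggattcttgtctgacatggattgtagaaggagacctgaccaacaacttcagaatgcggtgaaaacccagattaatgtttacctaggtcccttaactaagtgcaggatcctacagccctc
Slc17a2: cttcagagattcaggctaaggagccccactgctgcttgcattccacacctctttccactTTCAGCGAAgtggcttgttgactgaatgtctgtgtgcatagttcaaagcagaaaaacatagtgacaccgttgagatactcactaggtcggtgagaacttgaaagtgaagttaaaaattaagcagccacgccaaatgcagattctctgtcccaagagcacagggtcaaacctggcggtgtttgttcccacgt
Slc22a29: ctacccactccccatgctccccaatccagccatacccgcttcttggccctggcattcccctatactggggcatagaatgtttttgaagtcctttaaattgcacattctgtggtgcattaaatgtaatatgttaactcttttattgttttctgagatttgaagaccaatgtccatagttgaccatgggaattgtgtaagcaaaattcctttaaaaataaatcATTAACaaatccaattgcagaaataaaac
Slco1a1: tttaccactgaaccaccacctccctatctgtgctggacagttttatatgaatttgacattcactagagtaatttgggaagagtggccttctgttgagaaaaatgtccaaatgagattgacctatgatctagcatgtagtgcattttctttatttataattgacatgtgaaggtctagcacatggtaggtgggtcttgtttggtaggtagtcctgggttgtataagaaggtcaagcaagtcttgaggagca
Pzp: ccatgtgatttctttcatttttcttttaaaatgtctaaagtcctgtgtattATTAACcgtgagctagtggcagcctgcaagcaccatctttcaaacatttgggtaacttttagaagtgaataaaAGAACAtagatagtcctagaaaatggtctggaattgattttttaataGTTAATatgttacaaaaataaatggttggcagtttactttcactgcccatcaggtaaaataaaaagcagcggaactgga
Ugt2b37: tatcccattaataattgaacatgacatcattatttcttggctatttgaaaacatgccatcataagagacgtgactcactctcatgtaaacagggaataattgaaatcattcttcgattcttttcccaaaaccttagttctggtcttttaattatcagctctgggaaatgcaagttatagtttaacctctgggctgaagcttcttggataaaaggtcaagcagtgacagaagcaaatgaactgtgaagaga
No match to any of the 4 motifs was found in the windows of Ugt1a2, Slco1a1 and Ugt2b37, which are the gene with the largest rise, the gene with the largest fall and a further fall. The window of Pzp held 1 match to AGAACA and 2 to GTTAAT, that of Slc17a2 held 1 to TTCNNNGAA, and that of Slc22a29 held 1 to GTTAAT. A match describes letters and shows no binding. Over all called genes with an entry, AGAACA was found in 12.5% of the 1172 promoters of female-high genes and in 13.2% of the 1148 promoters of male-high genes, against 11.3% of the 15029 promoters of tested autosomal genes. GTTAAT was found in 7.34% and 7.06% against 4.72%. TTCNNNGAA was found in 6.66% and 5.05% against 6.09%. CAAAGTCCA was found in 0.171% (2 promoters) and 0.784% (9 promoters) against 0.373%. Over all 32851 promoters of the table the shares were 16.1% for AGAACA, 6.43% for GTTAAT, 7.02% for TTCNNNGAA and 0.384% for CAAAGTCCA.

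Slco1a1, an organic anion transporter of the proximal tubule brush border, was the gene with the largest fall in females. It stood at 0.733, 1.59 and 1.80 CPM in the 3 female R libraries and at 412, 252, 244, 574 and 232 CPM in male R replicates 1 to 5. Each male value was above 200 CPM and each female value below 2 CPM (log2 fold change -7.96 with an SE of 0.45, edgeR adjusted p = 2.92e-13; values after ± are SE from here on). Slc7a13, which carries aspartate, glutamate and cystine in the straight part of the proximal tubule, stood at 3.81, 7.18 and 6.78 CPM in females and at 1194, 1219, 977, 1333 and 984 CPM in males. The means lay 193-fold apart (log2 fold change -7.59 ± 0.26, edgeR adjusted p = 5.09e-20).

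Cyp2j13, an epoxygenase of the cytochrome P450 family, stood at 1.07, 1.59 and 1.66 CPM in females and at 276, 317, 262, 350 and 247 CPM in males (log2 fold change -7.65 ± 0.25). Acsm3, a mitochondrial medium-chain acyl-CoA synthetase, stood at 5.57, 8.89 and 8.44 CPM in females and at 844, 484, 381, 1144 and 412 CPM in males (log2 fold change -6.42 ± 0.54). Male R replicates 1 and 4 were the highest libraries for both Slco1a1 and Acsm3. Cyp7b1, which hydroxylates oxysterols and steroids, was 50.5-fold lower in females by the means, and Pzp, a secreted protease inhibitor, 127-fold lower. Ugt2b37, a glucuronosyltransferase, was 100-fold lower, and Apoh, a plasma apolipoprotein, 71.9-fold lower. Mpped1, Lipo2, Cyp4a12a and Neurog2 complete the 12 largest falls. Neurog2 was low, at most 4.84 CPM, and was no longer called without any 1 of the 3 female R libraries (edgeR adjusted p = 0.0778 to 0.107).

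Among genes higher in females, Ugt1a2, which conjugates bilirubin, steroids and drugs to glucuronic acid, stood at 568, 579 and 621 CPM in female R and at 2.01, 2.73, 1.83, 1.79 and 2.63 CPM in male R. The lowest female value was above 500 CPM and the highest male value below 3 CPM (log2 fold change 8.05 ± 0.30, edgeR adjusted p = 1.02e-17). Ugt1a1, from the same locus, was 15.5-fold higher in females at 2.28 to 4.01 CPM. The Ugt1a genes share their last exons, so the split of reads between them is uncertain. Abcc3, a basolateral exporter of glucuronides and bile salts, stood at 95.6, 81.7 and 83.4 CPM in females and at 1.70, 2.97, 1.99, 2.83 and 3.66 CPM in males (log2 fold change 5.04 ± 0.31). Slc7a12, an amino acid transporter related to Slc7a13, stood at 209, 305 and 227 CPM in females and at 1.88, 20.5, 8.30, 2.65 and 11.2 CPM in males (log2 fold change 4.77 ± 0.60). Here the male values spread over more than 10-fold, with replicates 1 and 4 the lowest, and still all lay below the females.

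Slc22a29, an organic anion transporter, was 17.2-fold higher in females by the means, and Slc17a2, of the phosphate and urate transporter family, 73.2-fold higher. Bhmt, which remethylates homocysteine with betaine, was 16.2-fold higher. Tmprss6, a membrane protease known for its control of hepcidin in liver, stood at 16.2, 12.5 and 9.53 CPM in females and at no more than 0.141 CPM in any male library. Myh1, Atp13a4, Igf2 and Scgb1c1 complete the 12 largest rises, and each had a male mean of under 1 CPM. The growth factor gene Igf2 stood at 9.28, 2.52 and 2.09 CPM in females, so the first library was well above the other females. All 24 genes had ranges that did not overlap between the sexes, as was so for 24.2% of all tested autosomal genes. Of the 24, 23 were called in every fit that left out 1 R library, with Neurog2 the exception. The 24 were picked as the largest called differences in these same libraries, so neither count is independent support.

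**Figure D1:**
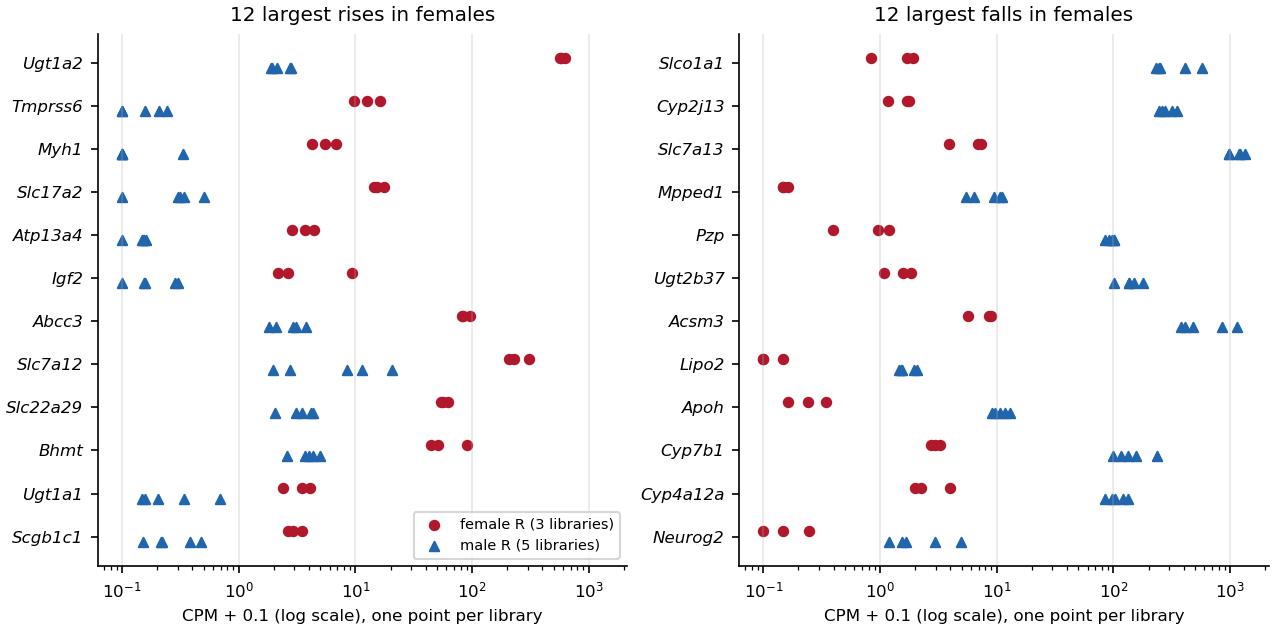
CPM plus 0.1 on a log axis for the 12 largest rises (left) and 12 largest falls (right) in female R against male R, with 1 point per library (circles: 3 female R; triangles: 5 male R). For none of the 24 genes do the female and male points overlap, and Slc7a12 and Igf2 show wide spreads within a sex.

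Of 26 tested genes of sex hormone, prolactin and growth hormone signalling, 4 were higher and 5 lower in females, and their median log2 fold change of 0.02 was close to the 0.03 of all genes. Prlr, the prolactin receptor, had the largest difference, at 192, 271 and 210 CPM in female R and 11.4, 38.7, 34.5, 6.63 and 37.7 CPM in male R. All females were above 190 CPM and all males below 40 CPM (log2 fold change 3.12 ± 0.46, edgeR adjusted p = 3.42e-05). Esr1, the estrogen receptor alpha gene, went the other way, at 4.98, 7.36 and 5.27 CPM in females and 14.8, 11.6, 11.1, 10.5 and 14.6 CPM in males (log2 fold change -1.10 ± 0.24). Ghr, the growth hormone receptor, was at 659 to 687 CPM in females and 748 to 772 in males, without passing the test (edgeR adjusted p = 0.286).

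Of the 5 genes of this list called lower in females, 3 encode enzymes that convert androgens. Srd5a1, a steroid 5-alpha reductase that makes dihydrotestosterone, was 2.19-fold lower, and Hsd17b2 and Hsd17b11, hydroxysteroid dehydrogenases, were 3.79-fold and 3.80-fold lower. Fkbp5, a chaperone known to be induced by steroid receptors, stood at 19.9 to 24.8 CPM in females and 51.9 to 106 CPM in males. Igfbp1, Igf1 and Jak2 were higher in females by log2 fold changes of 1.47 ± 0.36, 0.61 ± 0.18 and 0.52 ± 0.16. None of these 3 calls held without female R replicate 2 (edgeR adjusted p = 0.0719, 0.096 and 0.0809). That of Igf1 was also lost without female R replicate 3 or male R replicate 1, and that of Jak2 without female R replicate 1, female R replicate 3 or male R replicate 3. Socs2, a feedback inhibitor of this pathway, was at 45.5 to 72.2 CPM in females and 7.53 to 35 CPM in males, with an adjusted p of 0.0654 in the same test.

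The list of 21 tested genes known to be androgen-linked in kidney had no member higher and 18 lower in females, a median log2 fold change of -2.13. Its members were in part drawn from known male-high genes, so the direction is no independent result. Their summed level was 8418 to 10789 CPM in female R and 26626 to 44628 CPM in male R. Cyp4b1, a fatty acid hydroxylase, stood at 190, 193 and 121 CPM in females and 3400, 3415, 3533, 3414 and 2838 CPM in males. Odc1, ornithine decarboxylase and the first step of polyamine synthesis, stood at 411, 391 and 458 CPM in females and 2032, 1055, 1046, 2491 and 1105 CPM in males (log2 fold change -1.88 ± 0.27). Its male values formed a high pair, replicates 1 and 4, and 3 lower libraries that still exceeded the females more than 2-fold.

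Of the 14 polyamine genes tested, 3 were higher and 2 lower in females. Arg2, the mitochondrial arginase that yields ornithine, was opposite to Odc1, at 21 to 28.8 CPM in females and 2.88 to 4.73 CPM in males (log2 fold change 2.58 ± 0.19). Azin2 and Paox, an antizyme inhibitor and a polyamine oxidase, were higher in females by 0.65 ± 0.17 and 0.49 ± 0.16 on the log2 scale, and Oaz2, an antizyme, lower by a log2 fold change of -0.28 ± 0.09. The call of Azin2 ended without female R replicate 3, and those of Paox and Oaz2 without female R replicate 1 or 2 and some other libraries. Without any 1 of the female R libraries 3 of the 14 genes were called in place of 5.

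Several families of the proximal tubule held members that differed in opposite directions. Of 23 tested Slc22 transporters, which move organic anions, cations and urate, 6 were higher and 6 lower in females. Slc22a29 stood at 54.2, 56.2 and 61.6 CPM in females and 1.95, 3.02, 3.36, 4.27 and 4.03 CPM in males. Its relatives Slc22a28 and Slc22a30, also on chromosome 19, went the other way. Slc22a28 was at 14.7 to 19.7 CPM in females and 170 to 259 CPM in males, and Slc22a30 at 8.35 to 17.2 and 175 to 325 CPM. Slc22a12, the urate reabsorber URAT1, was lower in females at 596 to 699 CPM against 1385 to 1720 CPM (log2 fold change -1.29 ± 0.13). The summed Slc22 level was 3642 to 4371 CPM in females and 5446 to 6198 CPM in males. Close paralogs on chromosome 19 are alike in sequence, so the split of reads among them is uncertain.

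Of 25 tested amino acid transporters, 11 were higher and 2 lower in females, with a median log2 fold change of 0.35. The 2 extremes were the paralogs Slc7a13 (male-high) and Slc7a12 (female-high) given above. Slc6a18, a brush border carrier of glycine and other neutral amino acids, was at 1014 to 1151 CPM in females and 566 to 704 CPM in males (log2 fold change 0.81 ± 0.12). Slc7a8, the basolateral neutral amino acid exchanger, and Slc7a9, the light chain of the cystine carrier, were higher by 0.84 ± 0.15 and 0.64 ± 0.13. The summed levels of the 25 genes overlapped, at 4461 to 4893 CPM in females and 4282 to 4795 CPM in males. The count of higher members dropped to 6 without female R replicate 1, female R replicate 3 or male R replicate 4, and to 7 without female R replicate 2.

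Of 12 tested exporters of conjugates and drugs, 6 were higher and 1 lower in females, and none was lower without female R replicate 1. Beside Abcc3, the P-glycoprotein genes Abcb1a and Abcb1b were 3.95-fold and 4.25-fold higher in females. Abcc4, which exports organic anions and cyclic nucleotides into the urine, was at 101 to 135 CPM in females and 29.9 to 64.4 CPM in males. Abcc1 was higher by 0.80 ± 0.17 on the log2 scale. Among 8 tested Slco uptake transporters, Slco2a1, the prostaglandin transporter, was higher in females and Slco1a1, Slco3a1 and Slco4c1 were lower. Slco3a1 stood at 55.4 to 62.0 CPM in females and 196 to 255 CPM in males. Slco1a6, in the same gene cluster as Slco1a1, was at 299 to 368 CPM in females and 244 to 310 CPM in males without passing the test (edgeR adjusted p = 0.128).

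Cytochrome P450 genes differed in both directions. Of 20 tested Cyp2 genes 4 were higher and 6 lower in females, and of 14 tested Cyp4 genes 2 were higher and 4 lower. Cyp2e1, which oxidises small molecules such as ethanol, stood at 91.1, 102 and 84.2 CPM in females and 1360, 1132, 1188, 1350 and 1000 CPM in males. Cyp2d9 was 6.91-fold and Cyp2a4, a steroid hydroxylase, 2.35-fold lower in females, whereas Cyp2d26 was 2.29-fold higher. Among the fatty acid hydroxylases, Cyp4b1 was 19.7-fold lower and Cyp4a12a, the main source of 20-HETE in the male mouse kidney, 40.9-fold lower. Cyp4f14 was 3.52-fold higher, and Cyp4a14, chosen after its values were seen, stood at 561, 668 and 494 CPM in females and 60.6, 132, 39.1, 235 and 82.7 CPM in males. The summed Cyp4 level was 1427 to 1887 CPM in females and 3809 to 4799 CPM in males. Cyp4a12a and Cyp4a12b, and Cyp2a4 and its neighbours, are near-identical copies whose read split is uncertain.

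Among 37 tested conjugating enzymes, 9 were higher and 8 lower in females, and 8 were higher and 5 lower without female R replicate 1. The Ugt2b genes divided within 1 cluster on chromosome 5. Ugt2b37 and Ugt2b38 were lower in females, Ugt2b38 at 57.6 to 76.4 CPM against 586 to 1100 CPM, whereas Ugt2b34 was higher at 74.2 to 93.1 CPM against 16.2 to 32.3 CPM. Ugt8a, which makes galactosylceramide, was 9.84-fold lower. The summed level of the conjugating enzymes was 4877 to 5125 CPM in females and 4905 to 5915 CPM in males. Of 22 steroid and sterol enzymes, 7 were higher and 6 lower, and 4 were higher without female R replicate 1 or 3. Hsd11b1, which regenerates active glucocorticoid, was 3.01-fold lower in females, Hsd3b2 and Hsd3b3 were 3.30-fold and 2.05-fold lower, and Akr1c19 was 2.19-fold higher.

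Of 16 tested carboxylesterases and related hydrolases, 0 were higher and 7 lower in females, and 6 had a positive log2 fold change. Without the Q libraries, or without the 3 libraries that stand apart, 2 were called higher, and 1 was without male R replicate 3 or 4. Cndp2, a cytosolic dipeptidase, stood at 298, 288 and 320 CPM in females and 1911, 1328, 1683, 1792 and 1374 CPM in males. Ephx2, the soluble epoxide hydrolase, was 3.11-fold lower (log2 fold change -1.64 ± 0.12), Ces1f 6.84-fold and Ces2c 4.07-fold lower. Ces1g was at 2.54 to 3.37 CPM in females and 11.5 to 41.9 CPM in males.

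**Figure D2:**
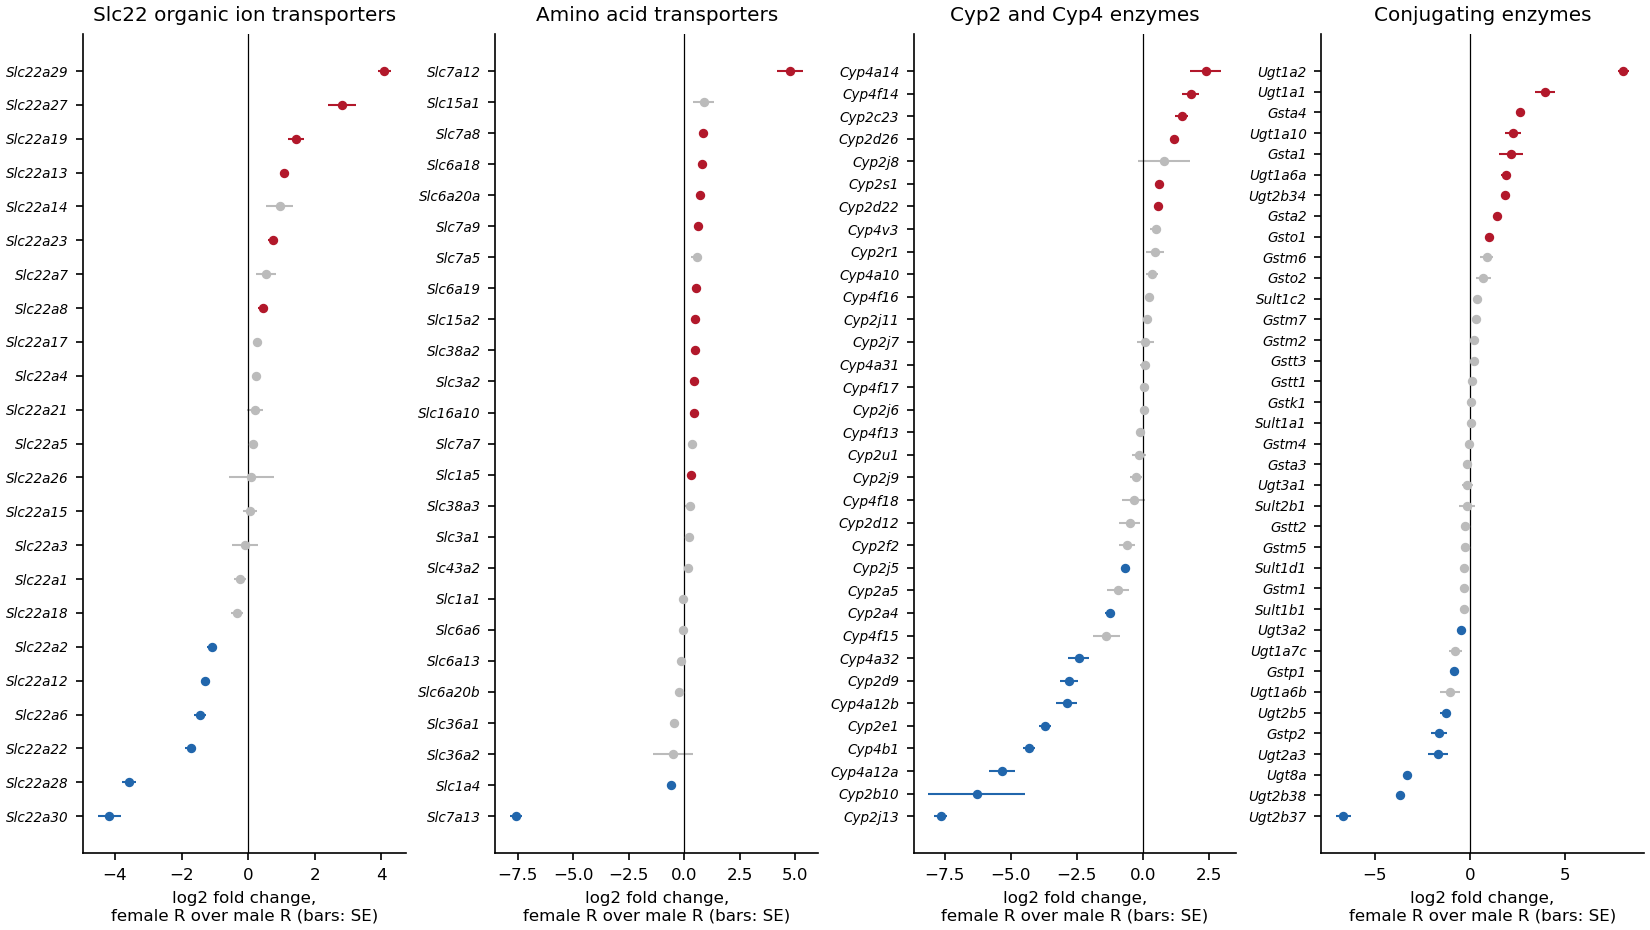
Log2 fold change of female R over male R (points) with its SE (bars) for every tested member of 4 gene groups, red where called higher, blue where called lower and grey where not called. Each group has members at both ends, such as Slc22a29 and Slc22a30, and Slc7a12 and Slc7a13.

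Genes of fatty acid use differed in both directions. Of 32 tested genes of fatty acid oxidation and the peroxisome, 5 were higher and 11 lower, with a median log2 fold change of -0.19, and 3 were higher without female R replicate 2. Cd36, a fatty acid uptake receptor, was at 123 to 159 CPM in females and 341 to 711 CPM in males. Acox3, a peroxisomal acyl-CoA oxidase, was 2.47-fold lower. Hao2, a peroxisomal 2-hydroxy acid oxidase, went the other way at 863, 1094 and 866 CPM in females and 161, 346, 340, 145 and 367 CPM in males, as did Acot3, a peroxisomal thioesterase, which was 3.65-fold higher. Of 13 acyl-CoA synthetases, 6 were higher and 4 lower, with a median of 0.35. Acsm2, a relative of Acsm3, stood at 1232 to 1500 CPM in females and 4128 to 5468 CPM in males. Acsl1, for long-chain fatty acids, was 2.22-fold higher in females. Of the enzymes that activate acetate, the mitochondrial Acss1 was 1.80-fold higher and the cytosolic Acss2 was 1.91-fold lower.

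Of 20 genes of glucose transport, gluconeogenesis and ammoniagenesis, 5 were higher and 2 lower in females. Pcx, pyruvate carboxylase, was at 400 to 424 CPM in females and 609 to 742 CPM in males, and Slc5a8, a carrier of lactate and other monocarboxylates, was 2.16-fold lower. Fbp2, the muscle-type fructose bisphosphatase, was 2.17-fold higher, and the sugar carriers Slc5a1 and Slc5a10 were 1.66-fold and 1.61-fold higher. Of 13 phosphate and vitamin D genes, 2 were higher and 3 lower. Lrp2 and Cubn, the endocytic receptors megalin and cubilin, were higher by 0.70 ± 0.16 and 0.71 ± 0.16 on the log2 scale. Slc34a1 was lower, at 4305, 4120 and 5154 CPM in females against 6244, 6137, 6588, 5393 and 5903 CPM in males (log2 fold change -0.42 ± 0.12). It was no longer called without female R replicate 1 or 2 (edgeR adjusted p = 0.0821 and 0.108), and no gene of this list was then called lower.

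Of 13 proximal tubule peptidases and brush border genes, 2 were higher and 4 lower in females. Lap3, Treh and Ggt1, a leucine aminopeptidase, trehalase and gamma-glutamyltransferase, were 2.15-fold, 2.73-fold and 1.64-fold lower, and Mme, neprilysin, and Napsa, an aspartic protease, were 2.28-fold and 1.64-fold higher. Of 17 genes of sodium and proton handling in this segment, 2 were higher and 2 lower, with a median of 0.22. A call was lost in each of the fits without female R replicate 1, 2 or 3 or male R replicate 4. Car4, a membrane carbonic anhydrase, was at 82.2 to 95.7 CPM in females and 173 to 247 CPM in males. Of 13 transcription factors of the proximal tubule, Nr1i2, the pregnane X receptor, was 2.46-fold higher in females, and Rxra and Nr1h4 were lower (log2 fold changes -0.39 ± 0.11 and -0.74 ± 0.22). The call of Rxra was lost without female R replicate 2 (edgeR adjusted p = 0.107), and that of Nr1h4 without female R replicate 1, female R replicate 3 or male R replicate 3 (edgeR adjusted p = 0.0935, 0.0772 and 0.0546).

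Many marker genes of the segments after the proximal tubule were higher in females by small amounts. Of 71 tested markers of the thin limb and inner medulla, thick ascending limb, distal convoluted tubule, principal cells and intercalated cells, 35 were called higher and 0 lower, where 7% of all tested autosomal genes were called higher and 7.25% lower, and 64 had a positive log2 fold change. The median was 0.43, against 0.03 over all genes, and the called differences ran from 0.33 to 1.19. Egf, a growth factor made in the thick ascending limb and distal convoluted tubule, stood at 1603, 2101 and 1946 CPM in females and 1062, 1208, 915, 1119 and 994 CPM in males. Slc12a1, the target of loop diuretics, was at 1386 to 1646 CPM in females and 824 to 1160 CPM in males (log2 fold change 0.71 ± 0.16), and Slc12a3, the target of thiazides, at 1010 to 1085 and 561 to 857 CPM (0.69 ± 0.16). Slc8a1 and Trpv5, which carry calcium out of and into distal convoluted and connecting tubule cells, were higher by 0.82 ± 0.13 and 0.91 ± 0.21.

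In intercalated cells, 10 of 19 tested markers were higher. Slc26a4, pendrin, was at 79.4 to 93.5 CPM in females and 52.5 to 58.5 CPM in males (log2 fold change 0.67 ± 0.10), and Atp6v1b1, a proton pump subunit, at 118 to 136 and 79.5 to 91.4 CPM (0.56 ± 0.10). In principal cells 6 of 15 were higher, among them Apela, the gene of a peptide hormone (log2 fold change 0.98 ± 0.13), and Kcnj1, the potassium channel ROMK (0.51 ± 0.11). In the thick ascending limb 10 of 15, in the distal convoluted tubule 7 of 13 and in the thin limb and inner medulla 3 of 12 were higher. In podocytes, 5 of 12 markers were higher and none lower, with a median of 0.44, and Plce1 was at 7.91 to 8.02 CPM in females and 3.87 to 5.37 CPM in males. The podocyte count was 8 without the 3 libraries that stand apart, a fit that called 1754 of 16446 tested autosomal genes higher. It was 3 without female R replicate 1 or 2, and 2 without female R replicate 3.

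The counts fell without some single libraries. Of the 71 distal markers, 20 were called without female R replicate 1 or without female R replicate 3, and the median then was 0.39. The count was 24 without female R replicate 2 and 25 without male R replicate 3. By list, the lowest counts were 3 for principal cells (without female R replicate 1 or 3), 5 for intercalated cells (without female R replicate 2), 5 for the thick ascending limb (without female R replicate 3), 4 for the distal convoluted tubule (without female R replicate 3 or male R replicate 3) and 0 for the thin limb and inner medulla (without female R replicate 1). With DESeq2 size factors 33 distal markers were higher and 1 lower. DESeq2, and edgeR on the 8 R libraries alone, also called 1 lower. So did the fits without the Q libraries, the 3 libraries that stand apart or male R replicate 2. These further settings called 35 to 42 higher. A test against a fold change of 1.5 was passed by 1 of the 71. In RNA of a whole kidney, fewer cells of a type and less RNA per cell cannot be told apart.

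**Figure D3:**
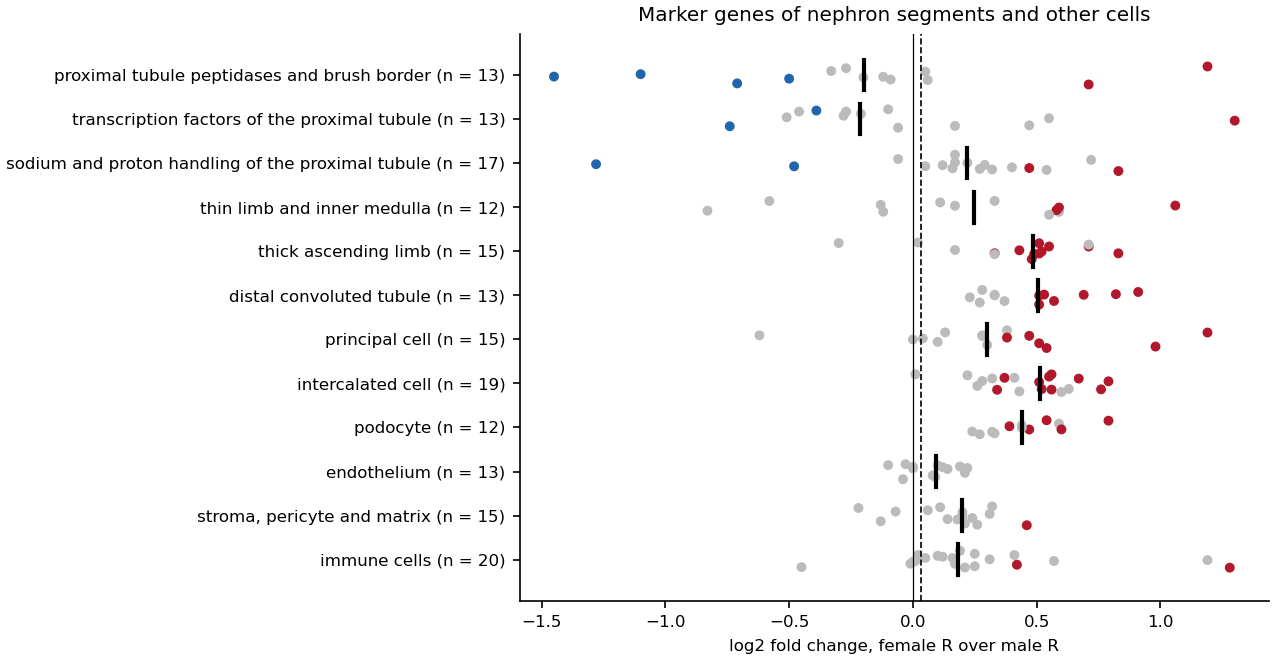
Log2 fold change of female R over male R for tested marker genes of nephron segments and other cells (1 point per gene, red where called higher, blue where called lower, grey where not called; jittered vertically), with the median of each list as a bar and the median of all tested autosomal genes as a dashed line. Medians lie between 0.25 and 0.51 for the 5 segments after the proximal tubule and for podocytes, and at -0.20, -0.21 and 0.22 for the peptidases, transcription factors and sodium and proton genes of the proximal tubule.

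Few markers of other cells in the kidney were called in R. In WT and Q, 4 and 2 of 13 endothelial and 7 and 5 of 15 stromal markers were called in either direction. Of 20 immune markers 2 and 0 were called, and of 15 interferon response genes 10 and 8. The shares of all tested autosomal genes called were 16.9% in WT and 23.4% in Q. The female group had 3 libraries in R and 5 each in WT and Q, and the part of group size was not tested. In R, none of the endothelial markers was called (median 0.10), and Rgs5, a pericyte gene, was the only 1 of 15 stromal markers to be called. Rgs5 was at 40.3 to 50.5 CPM in females and 30.1 to 38.3 CPM in males, and lost its call without female R replicate 1 or 2 or male R replicate 1, 3 or 4 (highest edgeR adjusted p = 0.15). Of 20 immune markers (median 0.18) 2 were higher in females, a share near the 7% of all genes: Csf1r, a macrophage receptor, at 59.2 to 69.3 against 44.4 to 56.3 CPM, and Jchain, made by plasma cells, at 8.97 to 9.94 against 2.86 to 5.14 CPM. Of 15 interferon response genes (median 0.40), Ifit2 and Ifit3 were higher. The call of Ifit2 was lost without female R replicate 2 or male R replicate 3. That of Ifit3 was lost without any 1 of the 3 female R libraries, or without male R replicate 1, 3, 4 or 5 (highest edgeR adjusted p = 0.131). Without the 3 libraries that stand apart, 4 of the 15 genes were called higher, as were 1754 of 16446 tested autosomal genes. None of 9 urothelial, 7 muscle and red cell, 18 immediate early or 19 clock genes was called by edgeR with all 28 libraries. Their medians were -0.12, -0.32, -0.33 and 0.00. With the 8 R libraries alone, edgeR called 1 immediate early gene higher and 1 lower, and 1 clock gene higher and 2 lower. With the endothelial markers these lists hold 66 genes, of which 5 had an unadjusted p under 0.05 and 2, Per2 and Jund, were called lower in females by DESeq2. Of 10 adrenal cortex and medulla genes only Star passed the filter on low counts, at 2.19 to 3.82 CPM.

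Adipocyte markers varied among libraries of one sex. Their summed level was 61.1 to 207 CPM in female R and 98.0 to 333 CPM in male R, with male R replicate 5 the highest and female R replicate 1 the highest female. Adipoq, the adiponectin gene (chosen after its values were seen), stood at 7.82, 0.123 and 1.19 CPM in females and 3.47, 3.35, 0.153, 4.96 and 13.1 CPM in males. Car3, an adipocyte carbonic anhydrase, was the 1 of 10 tested markers called, lower in females at 12.5 to 43.4 CPM against 50.9 to 86.5 CPM, and it lost its call without female R replicate 2 or 3 or male R replicate 4 or 5 (highest edgeR adjusted p = 0.193). The part of fat in the differences given above was not tested.

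Of 15 tubule injury markers 2 were higher and 2 lower in females. Spp1, osteopontin, was at 1329 to 1400 CPM in females and 490 to 578 CPM in males (log2 fold change 1.35 ± 0.12), and Fgb, a fibrinogen chain, was 3.23-fold higher. Havcr1, which encodes KIM-1, was low, at 0.342 to 0.920 CPM in females and 1.99 to 5.14 CPM in males, and lost its call without female R replicate 1 (edgeR adjusted p = 0.0876). Of 26 complement and secreted plasma proteins 7 were higher and 7 lower. Serpinf2, antiplasmin, was 4.99-fold lower in females, Apoe was 2.87-fold higher, at 798 to 902 CPM against 204 to 417 CPM, and C8a, a complement subunit, was 2.88-fold higher.

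Aqp3, the altered gene, stood at 133, 118 and 121 CPM in female R and 120, 118, 116, 99.1 and 114 CPM in male R. The ranges overlapped, and the log2 fold change of 0.13 ± 0.12 did not pass the test (edgeR adjusted p = 0.514). Counts of the gene do not show the altered codon, so they do not check the genotype. Of 9 tested aquaporins 1 was called, where 14.2% of all tested autosomal genes were. This was Aqp4, the other basolateral water channel of principal cells. Aqp4 stood at 58.8, 94.8 and 74.7 CPM in females and 17.4, 55.5, 32.5, 28 and 33.1 CPM in males (log2 fold change 1.19 ± 0.30, edgeR adjusted p = 0.00717), and was not called without female R replicate 2 (adjusted p = 0.0657 by the same test). Aqp2, the channel regulated by vasopressin, was at 247 to 492 CPM in females and 311 to 513 CPM in males, and Aqp1, of the proximal tubule and thin limb, at 1113 to 1174 and 938 to 1139 CPM. Of 11 genes of glycerol handling, Mgll, monoglyceride lipase, was called (log2 fold change 0.64 ± 0.19), and not without female R replicate 1 or 3 (edgeR adjusted p = 0.0662 and 0.0836). With all libraries, neither list held a larger called share than the 14.2% of all genes. With the 3 libraries that stand apart left out, 2 of the 11 glycerol genes were higher and 4 lower. In that fit 1754 of 16446 tested autosomal genes were higher and 2268 lower.

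The 5 male R libraries did not differ from females by the same amount. Over the 692 called genes with an at least 2-fold difference, male R replicate 4 was the library farthest from the female mean for 228 genes (32.9%) and replicate 1 for 150 genes (21.7%). Replicates 2, 3 and 5 were farthest for 94, 134 and 86 genes (13.6, 19.4 and 12.4%). With 5 libraries an even split gives each 1 gene in 5, so replicates 1 and 3 were near it. Replicates 1 to 5 were nearest to the female mean for 14.3, 23.4, 24.4, 13.3 and 24.6% of the 692 genes. Replicate 4 lay above the male median for 10 of the 12 largest falls, and replicates 1, 2, 3 and 5 for 4, 6, 0 and 4 of them. Of the 12 largest rises, replicates 1 to 5 lay below the male median for 5, 5, 5, 6 and 1, which did not set replicate 4 apart. Among single genes, chosen after their values were seen, replicates 1 and 4 were the highest males for Slco1a1, Acsm3, Odc1, Cyp7b1 and Cd36, and the lowest males for Slc7a12, Prlr and Hao2. For Odc1 the value of replicate 4 was more than 2-fold that of replicate 3. Other genes of the largest falls, such as Pzp at 83.9 to 102 CPM and Slc7a13 at 977 to 1333 CPM, varied little among males. Leaving out replicates 1 to 5 in turn kept 1954, 2210, 1950, 1947 and 2039 of the 2368 calls, so these counts do not set replicates 1 and 4 apart from replicate 3.

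**Figure D4:**
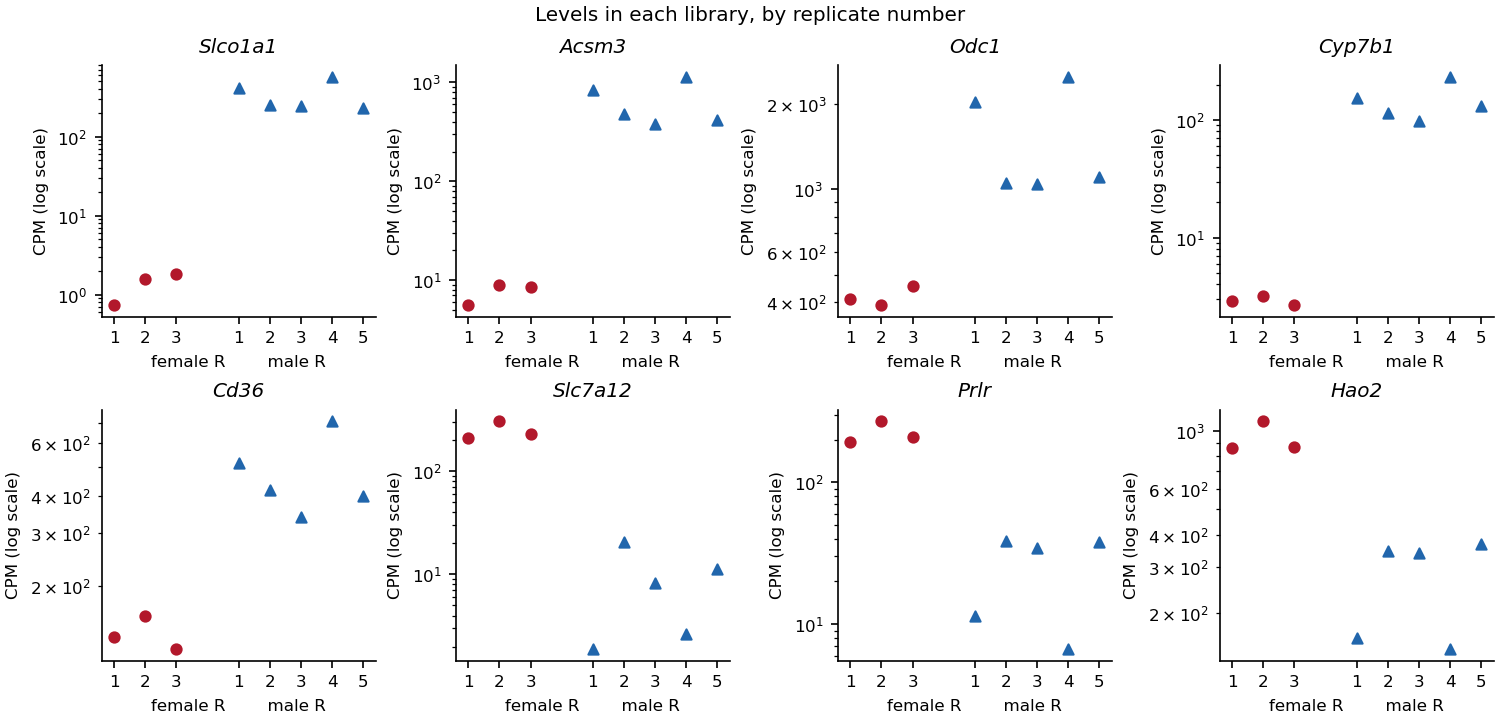
CPM (log axis) of 8 genes in each R library, by replicate number (circles: 3 female R; triangles: 5 male R). Male R replicates 1 and 4 lie farther from the females than male R replicates 2, 3 and 5 in all 8 panels, which were chosen after their values were seen.

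The question of whether the sex difference depended on the Aqp3 form was addressed with the WT and Q libraries. In WT, 2807 autosomal genes differed between the sexes (16.9%), 8.47% higher and 8.42% lower in females. In Q, 3897 did (23.4%), 11.3% higher and 12.2% lower. Without female WT replicate 2, which lacked Xist, the WT count was 2276. Of the 2368 genes called in R, 2347 (99.1%) had the same sign in WT and 2346 (99.1%) in Q, against 74.8% and 77.7% of all tested autosomal genes. In WT 1653 were also called with the same sign, 69.8% of the R calls and 58.9% of the WT calls. In Q this held for 1942 genes, 82.0% of the R calls and 49.8% of the Q calls, and 1 gene was called with the opposite sign. Across the genes called in R, Pearson's r between the log2 fold changes was 0.95 for WT and 0.945 for Q. Genes are not independent replicates, so no p is given.

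The largest differences recurred. All 24 genes with the largest rises and falls in R were also called in WT and in Q, with the same sign. Ugt1a2 had log2 fold changes of 7.87 in WT and 7.66 in Q against 8.05 in R, and Slco1a1 of -8.19 and -8.60 against -7.96. Prlr had 3.28 and 3.87 against 3.12, Odc1 -1.58 and -2.36 against -1.88, and Slc7a12 4.41 and 6.11 against 4.77. The 71 distal markers had median log2 fold changes of 0.37 in WT and 0.40 in Q, against 0.43 in R. Some lists with few or no calls in R did not keep their sign. The adipocyte median was 1.07 in WT and 1.65 in Q against -0.59 in R. The urothelial median was 0.48 and 0.28 against -0.12, and the immediate early median 0.53 and -0.10 against -0.33. Of the R calls, 343 (14.5%) were called in neither WT nor Q. Their median absolute log2 fold change was 0.55, against 0.74 for the 1571 genes called in all 3 genotypes with 1 direction.

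The difference of the sex contrast itself was then tested. No autosomal gene had a sex difference in R that differed from that in WT or from that in Q (edgeR quasi-likelihood test of the interaction, adjusted p under 0.05). At an unadjusted p under 0.05 there were 475 genes for WT (2.86%) and 530 for Q (3.19%), and DESeq2 called 0 in both. Without the 3 libraries that stand apart, these unadjusted counts rose to 1095 and 1306 of 16446 tested autosomal genes. Without male Q replicate 4, the Q count rose to 1753 of 16565. In each case 0 genes were called. Among the 24 genes, the smallest unadjusted p of the difference by the same test was 0.133 against WT and 0.0177 against Q, the latter for Cyp4a12a. The immune genes Csf1r and Jchain were called in R but not in the other genotypes. Their differences between R and WT were 0.38 ± 0.13 and 1.17 ± 0.46 on the log2 scale and did not pass the test (edgeR adjusted p = 0.992 for both). For Aqp3 the difference between R and WT was 0.17 ± 0.15 (edgeR adjusted p = 0.992). A test that calls no gene does not show that the sex contrasts were alike.

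**Figure D5:**
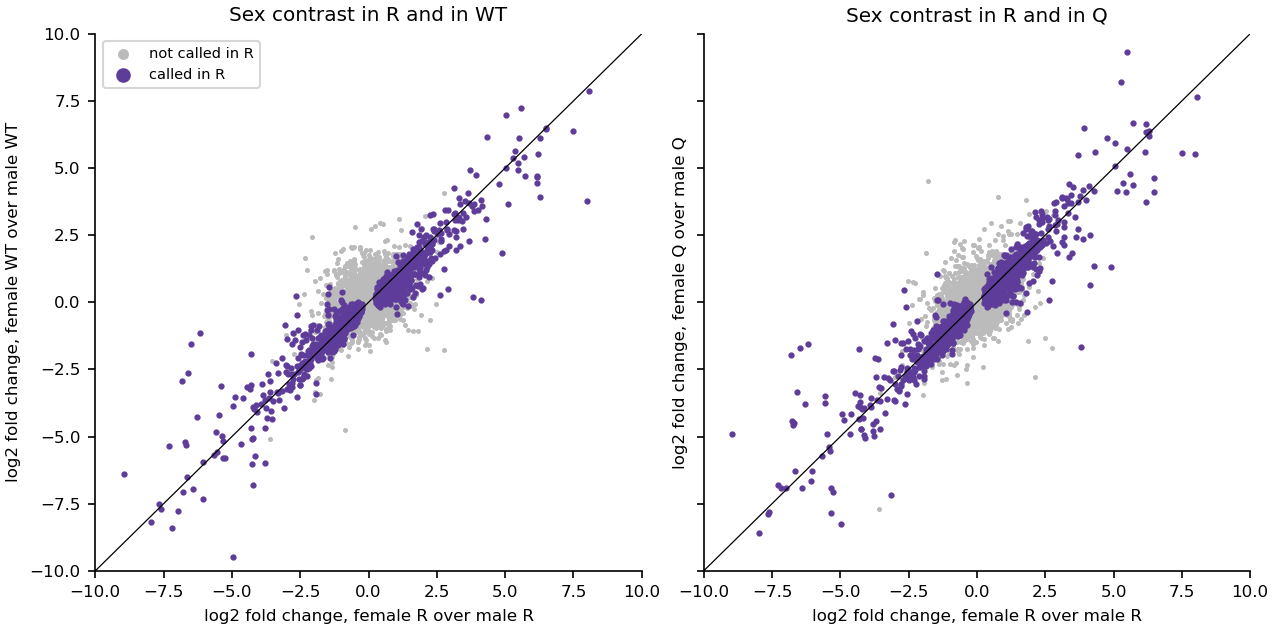
Log2 fold change of female over male in R (horizontal axis) against WT (left) and Q (right) for each of 16622 tested autosomal genes, purple where called in R and grey where not, with the line of equal values. Called genes follow the line in both panels, with 99.1% of them on the same side of 0.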

How the data were processed

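The authors deposited raw counts of fragments per gene. Per the file headers, these came from featureCounts 2.0.1 with GRCm39 gene models of Ensembl release 107 and no strand option, so overlapping antisense genes cannot be told apart. Trim Galore 0.6.7 and DESeq2 1.38.3 are listed in the submitters' processing notes, and the aligner is not given in the sources used here. Chromosomes were taken by Ensembl identifier from GENCODE mouse release 21 on GRCm38. Genes with no match held 0.658% of counts and were left out.

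In R 4.3.3, edgeR 4.0.16 was used with filterByExpr, TMM and 1 mean for each of 6 groups of 28 libraries (22 residual degrees of freedom, robust quasi-likelihood test). P-values were adjusted over all 17573 tested genes. Each SE was derived from the log2 fold change and the F statistic and is approximate for low counts. Levels are CPM, which are not comparable between genes of different length. A fold with no log2 is the ratio of the group means in CPM. The code was tested on simulated data. The members, the gene lists and the motifs were chosen with earlier results of these data known. Genes were named from the 12 largest rises and falls that average at least 1 CPM and keep their direction without each R library, up to 5 members with the smallest p of each list described, and all tested hormone signalling genes and aquaporins. Not every gene this rule covers is printed, and 1 is not reported here. The alternatives were DESeq2 size factors, DESeq2 1.42.0, no filter, a replicate block, fits on fewer libraries and a test against a fold change of 1.5.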

Additional observations from a re-analysis of the deposited data

Results flagged for a closer look

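For 8 of the 130 genes named, 1 of the 5 male R libraries lay apart from the other 4 (Dixon's test at 95%, critical value 0.71), where chance gives about 1 in 20. Male R replicate 2 had 0.236 CPM of Myh1, with the other male R libraries at 0, and 230 CPM of Cubn. Male R replicate 4 had 0 CPM of Atp13a4, 99.1 CPM of Aqp3 and 906 CPM of Ces1f. Male R replicate 3 had 22.5 CPM of Apela and 5.14 CPM of Havcr1. Male R replicate 5 had 2838 CPM of Cyp4b1. In each case the library lay on the same side of the female R values as the other males, except for Aqp3, where the ranges of the sexes overlapped. The 3 libraries of the female R group are too few for this test.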

How the results depend on the processing

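The 2368 calls of the R contrast became 3798 without the Q libraries, 4022 without the 3 libraries that stand apart (added after the data were seen), 486 when tested against a fold change of 1.5, and 1541 to 2585 without 1 R library. DESeq2 size factors gave 2396, DESeq2 2741, no filter 1850 and the 8 R libraries alone 3186. The replicate block gave 2009. Same-numbered female and male R libraries correlated in their deviations by -0.046, 0.015 and 0.10. Of the 3 females, 1 was closest to its own number. So few values cannot settle whether the numbers pair the libraries. The interaction tests called 0 genes under every alternative run, with 357 to 678 (WT) and 417 to 1753 (Q) genes at an unadjusted p under 0.05 without 1 library, and 1483 and 1647 of 36679 genes with no filter. The WT count was 2275 to 2725 and the Q count 3312 to 4093 without 1 library. Over the 130 named genes, 1957 of the alternative values kept direction and side of the threshold, 110 lost the call, 9 gained it (for Socs2, Per2 and Jund) and 4 reversed in sign. The log2 fold changes that reversed were those of Aqp2 (0.09 with the replicate block, -0.20 to 0.24 without 1 R library) and Adipoq (-2.84 to 0.06 without 1 R library), neither of which was called. Depth limits genes of a few CPM such as Neurog2, which had 4 counts over the 3 female R libraries.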
